A study of Mus musculus with 6 samples.

Results

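Of the 8 genes described here, all but Atp8b1 encode pumps that move lipids, drugs and copper out of the hepatocyte into bile, while ATP8B1 moves phospholipids inward. The 8 are Abcb4, Atp8b1, Abcg5, Abcg8, Abcb1a, Abcb1b, Abcg2 and Atp7b. They were taken by gene symbol, and all 8 were found among the 24532 genes of the deposited table, with 11 of its 36780 transcripts. Every animal was a wild-type C57BL/6 mouse fed 0.1% DDC (3,5-diethoxycarbonyl-1,4-dihydrocollidine), a porphyrin-raising compound that injures bile ducts, for 4 weeks. The 3 rhCYGB mice were given recombinant human cytoglobin, an oxygen-binding globin, at 2 mg/kg 2 times a week over the last 2 weeks, and the 3 vehicle mice were given normal saline on that schedule. Livers were collected 2 days after the final rhCYGB dose and their poly(A) RNA was sequenced. Livers of mice on a normal diet were not analysed here, so each comparison is between injured livers, and the labels state neither age nor sex. The injected agent is a protein, so no transcript checks the labels.

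The canalicular membrane is the part of the hepatocyte surface that faces bile. ABCB4 moves phosphatidylcholine to the outer leaflet, from where bile salts carry it off, and ATP8B1 moves phospholipids the other way and keeps the membrane resistant to bile salts. ABCG5 and ABCG8 act only as a pair and export cholesterol and plant sterols. ABCB1A and ABCB1B, the mouse P-glycoproteins, and ABCG2, which also carries porphyrins, export drugs, and ATP7B loads copper onto ceruloplasmin and sends excess copper to bile. Inherited loss of ABCB4, ATP8B1 or ATP7B causes liver disease in humans.

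Sequences before the transcript starts are shown because some of these genes lie side by side: Abcg5 and Abcg8 are read in opposite directions from neighbouring starts, and Abcb1a, Abcb1b and Abcb4 follow each other on the plus strand of chromosome 5. The sequences are from RefSeq (GRCm38.p6, the assembly called mm10 in the deposited files) and end at the base before the start of the deposited transcript. The first is the whole interval between the starts of Abcg5 and Abcg8, at chr17:84683012-84683120 on the plus strand. The others are the 250 bases before Abcb4 (chr5:8893471-8893720, plus strand), its neighbour Abcb1b (chr5:8797897-8798146, plus strand) and Atp7b (chr8:22060075-22060324, minus strand). They are written 5′ to 3′, and capitals mark matches, on either strand, to the motifs searched.
Abcg5-Abcg8: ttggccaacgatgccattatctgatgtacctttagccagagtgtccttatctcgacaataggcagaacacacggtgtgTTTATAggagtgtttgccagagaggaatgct
Abcb4: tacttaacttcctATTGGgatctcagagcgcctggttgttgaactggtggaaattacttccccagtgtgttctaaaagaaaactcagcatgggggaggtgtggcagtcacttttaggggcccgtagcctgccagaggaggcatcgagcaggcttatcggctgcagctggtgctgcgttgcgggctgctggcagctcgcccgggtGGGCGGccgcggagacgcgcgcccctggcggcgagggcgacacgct
Abcb1b: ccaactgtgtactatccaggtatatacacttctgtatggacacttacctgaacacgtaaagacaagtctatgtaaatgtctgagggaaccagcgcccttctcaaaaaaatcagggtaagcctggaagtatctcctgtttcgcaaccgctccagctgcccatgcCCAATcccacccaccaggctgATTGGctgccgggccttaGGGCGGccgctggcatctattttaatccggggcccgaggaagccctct
Atp7b: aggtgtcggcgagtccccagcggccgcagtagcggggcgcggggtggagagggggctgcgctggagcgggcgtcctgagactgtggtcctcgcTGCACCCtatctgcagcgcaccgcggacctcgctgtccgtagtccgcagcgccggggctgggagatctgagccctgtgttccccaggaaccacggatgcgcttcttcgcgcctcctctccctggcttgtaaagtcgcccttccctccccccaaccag

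The motifs searched were the GC box GGGCGG, the CCAAT box CCAAT, the TATA box TATAAA, the nuclear receptor half-site AGGTCA and its extended form CAAGGTCA, which holds the shorter one, the antioxidant response core TGACNNNGC, and the metal response core TGCACNC or TGCGCNC. The intervals before Abcb4 and Abcb1b each held 1 GC box, which starts at -46 and -48 from the transcript start and is present in 32.7% of 32817 RefSeq windows of 250 bases. A CCAAT box on the minus strand began at -237 before Abcb4, and Abcb1b had CCAAT boxes at -87 on the plus strand and -66 on the minus strand, a motif held by 33.8% of such windows. The Atp7b interval had 1 metal response core at -157 (21.4% of windows). Between Abcg5 and Abcg8 lay 1 TATA box letter match, on the minus strand at -31 from the Abcg8 start, against 5.91% of windows of that interval's length of 109 bases. These are matches of letters and were not tested as binding sites. The RefSeq window of Abcb1a began its transcript 93001 bases upstream of the deposited one and is not shown.

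The libraries differed in ways that cut across the groups, and each result on the pumps rests on this. Total estimated counts ran from 58422095 to 72431373. On the first principal component of log2 CPM (66.7% of the variance) rhCYGB replicate 1 lay at -54.6, among the vehicle libraries at -83.3 to -27.5, while rhCYGB replicates 2 and 3 lay at 61.3 and 139. Per doubling of transcript length, log2 expression departed from the 6-library mean by 0.24, -0.36 and -0.33 in rhCYGB replicates 1 to 3 and by 0.41, -0.02 and 0.06 in vehicle replicates 1 to 3. Relative to short transcripts, long ones were low in rhCYGB replicates 2 and 3.

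None of the 8 pumps passed an adjusted p of 0.05 by edgeR's quasi-likelihood test on all 6 libraries, nor did any of the 14415 genes tested (0% called). The pumps did not share 1 pattern. Abcb4, Abcg5 and Abcg8 had higher CPM with rhCYGB in the TMM-scaled fit, but lower values on log2(TPM + 1). Atp7b and Atp8b1 were at their lowest in rhCYGB replicates 2 and 3, with rhCYGB replicate 1 near the highest vehicle value, and Abcg2 repeated that pattern over a smaller range. For Abcb1a, only rhCYGB replicate 3 lay below all vehicle livers, replicate 1 lay above them and replicate 2 was within their range. Abcb1b was low in all 6 livers, at 42 to 170 estimated counts. At an unadjusted p under 0.05 there was 1 pump, Abcb4, higher with rhCYGB, against 8.12% of all genes tested, and 6.06% counting only the higher ones. All 8 passed the filter on low counts, and their median log2 fold change (rhCYGB over vehicle) was -0.16, with 3 higher and 5 lower, beside -0.06 over all genes tested. CPM here is the count scaled to the TMM-adjusted library total, which compares a gene between libraries. TPM is divided by transcript length and scaled to a fixed total per library, without the TMM factors. The 2 scales therefore differ in library scaling as well as in length. TPM is used to compare genes and to sum marker lists, and fits on log2 TPM are given beside those on CPM.

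**Figure D1:**
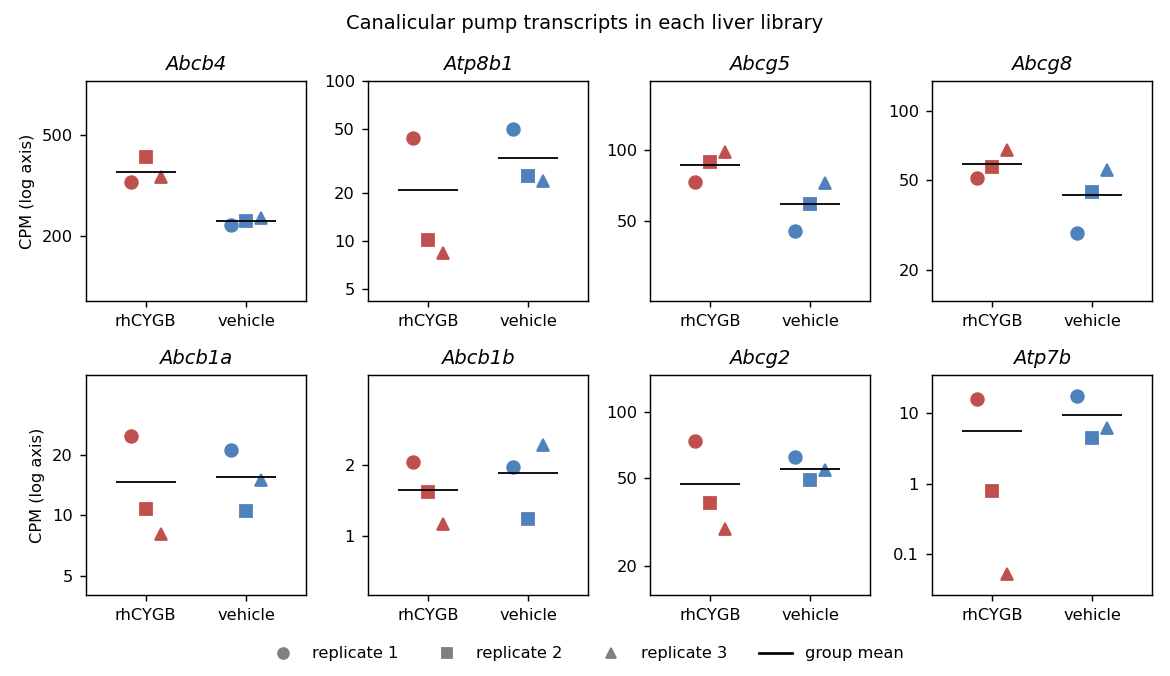
CPM of each pump (vertical log axis, scaled per gene) in the 3 rhCYGB libraries and the 3 vehicle libraries, with markers for replicates and a line for the group mean. For Abcb4 all 3 rhCYGB livers lie above all 3 vehicle livers in CPM, though not in TPM, and for Atp7b and Atp8b1 rhCYGB replicate 1 lies with vehicle replicate 1 while rhCYGB replicates 2 and 3 are lowest.

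The phospholipid pump Abcb4 (gene 18670, chromosome 5, 8893721 to 8959226, 28 exons) measured 326, 406 and 339.9 CPM in rhCYGB replicates 1 to 3, against 220.5, 229 and 235 CPM in vehicle replicates 1 to 3. The groups did not overlap, and the vehicle livers lay close together. The means were 357 ± 42.7 and 228 ± 7.43 CPM (SD, n = 3 each), a log2 fold change of 0.65 (SE 0.27, edgeR adjusted p = 0.523). On log2(TPM + 1) the sign was the other way, at -0.10 (limma adjusted p = 0.831), on a scale where the median of all genes was -0.51. Its TPM values overlapped, at 173, 107 and 76.6 in rhCYGB livers and 152, 99.5 and 116 in vehicle livers. Every rhCYGB liver was above every vehicle liver in CPM for 2 of the 8 pumps, Abcb4 and Abcg5, against 6.02% of all genes tested, and in TPM for 0 pumps, against 1.33%.

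Atp8b1 (gene 54670, chromosome 18, 64528979 to 64661000), the flippase that works against the outward movement of phospholipids, behaved differently. It measured 44.0, 10.1 and 8.31 CPM in rhCYGB replicates 1 to 3, against 50.02, 25.4 and 23.5 CPM in vehicle replicates 1 to 3. The rhCYGB replicate 1 liver was next to the highest of all 6, and the other rhCYGB livers were the 2 lowest. The log2 fold change was -0.66 (SE 0.67, edgeR adjusted p = 0.636). Without rhCYGB replicate 1 it was -1.84 (edgeR adjusted p = 0.0231), where 23.2% of all genes were called and 10.5% were called lower. Without both rhCYGB replicates 2 and 3, the remaining rhCYGB liver gave a log2 fold change of 0.41 (edgeR adjusted p = 0.999).

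The sterol half-transporters varied together from liver to liver. Abcg5 (gene 27409, chromosome 17, 84658174 to 84683011, minus strand) measured 73.4, 88.6 and 98.1 CPM in rhCYGB replicates 1 to 3, against 45.4, 58.7 and 72.6 CPM in vehicle replicates 1 to 3. Abcg8 (gene 67470, chromosome 17, 84676302 to 84700333, plus strand) measured 50.6, 57.2 and 67.8 CPM in rhCYGB replicates 1 to 3, against 29.2, 44.0 and 55.2 CPM in vehicle replicates 1 to 3. The Abcg5 groups were separated by less than 1 CPM, and the Abcg8 groups overlapped at vehicle replicate 3. Abcg5 had a log2 fold change of 0.56 (SE 0.27, edgeR adjusted p = 0.523) and Abcg8 of 0.45 (SE 0.30, edgeR adjusted p = 0.544). Both changed sign on log2(TPM + 1), to -0.16 and -0.25, on a scale where the median of all genes was -0.51. The deposited Abcg8 variant 2 starts inside Abcg5 on the other strand, and the strand setting of the counting is not stated in the labels, so reads from the shared stretch cannot be told apart. That variant held at most 12 counts in any library.

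Abcg8 was the pump with several deposited transcripts, and the division of its counts among them differed between livers far more than their sum. Variant 1 (3667 bases) took 1406, 2925 and 0 counts in rhCYGB replicates 1 to 3, against 1146, 1316 and 1568 counts in vehicle replicates 1 to 3. Variant 4 (3664 bases, 3 bases shorter) took 2172, 2 and 2397 counts in rhCYGB replicates 1 to 3, against 1070, 1569 and 1909 counts in vehicle replicates 1 to 3. In rhCYGB replicate 2 variant 1 held 95.0% of the gene's counts, and in rhCYGB replicate 3 variant 4 held 93.9%, while in the vehicle livers the shares of variant 1 were 40.5% to 46.4%. Of the 11 pump transcripts 10 were tested, and 0 passed an adjusted p of 0.05 by edgeR over 19664 transcripts. At an unadjusted p under 0.05 there was 1 of the 10, the transcript of Abcb4, against 4.04% of all transcripts tested.

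**Figure D2:**
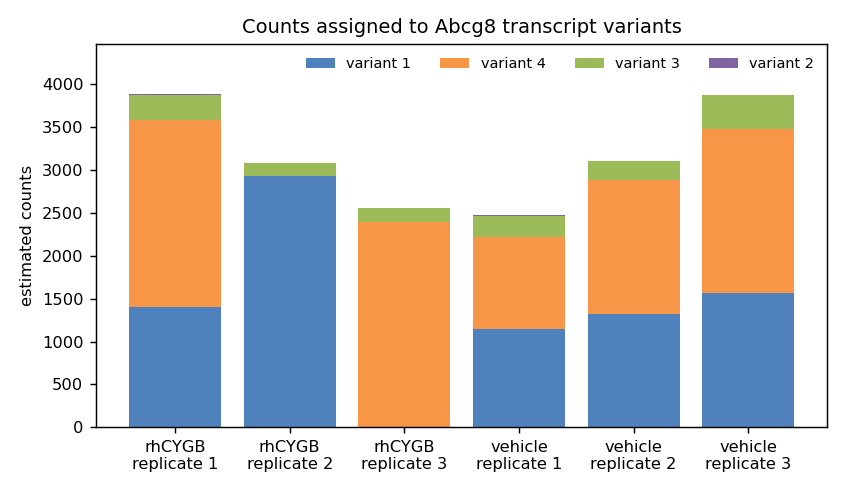
Estimated counts (vertical axis) assigned to the 4 deposited Abcg8 variants in each library, stacked. The total is between 2472 and 3884 in every liver, while rhCYGB replicate 2 has nearly all of it on variant 1 and rhCYGB replicate 3 has nearly all of it on variant 4.

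Among the drug pumps, Abcg2 (gene 26357, chromosome 6, 58596672 to 58692451), which also exports porphyrins, measured 73.6, 38.6 and 29.5 CPM in rhCYGB replicates 1 to 3, against 62.2, 49.1 and 54.5 CPM in vehicle replicates 1 to 3. The rhCYGB livers lay on either side of the vehicle livers, replicate 1 above them all and replicates 2 and 3 below them all. Its log2 fold change was -0.23 (SE 0.37, edgeR adjusted p = 0.755), and -0.70 without rhCYGB replicate 1 (edgeR adjusted p = 0.0621). The P-glycoprotein gene Abcb1a (gene 18671, chromosome 5, 8660092 to 8748570) measured 24.8, 10.8 and 8.07 CPM in rhCYGB replicates 1 to 3, against 21.0, 10.5 and 14.9 CPM in vehicle replicates 1 to 3. Here too rhCYGB replicate 1 was highest and replicate 3 lowest. The log2 fold change was -0.09 (SE 0.47, edgeR adjusted p = 0.926), with the opposite sign once the length trend was removed, at 0.16.

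The other P-glycoprotein gene, Abcb1b (gene 18669, chromosome 5, 8798147 to 8866314), measured 2.06, 1.54 and 1.12 CPM in rhCYGB replicates 1 to 3, against 1.96, 1.18 and 2.42 CPM in vehicle replicates 1 to 3. It was the least abundant drug pump in every liver, and its log2 fold change of -0.23 (SE 0.44, edgeR adjusted p = 0.783) was well within the spread. The 2 genes share part of their sequence. Of the words of 50 bases in the Abcb1b transcript of GENCODE, 18.0% also occurred in Abcb1a, and 1.55% in Abcb4, so part of the reads could have been divided between them by the assembler. Of the Abcb4 words, 3.15% occurred in Abcb1a.

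The copper pump Atp7b (gene 11979, chromosome 8, 21994348 to 22060074, 21 exons) had the widest range of the 8. It measured 15.98, 0.80 and 0.05 CPM in rhCYGB replicates 1 to 3, against 17.6, 4.54 and 6.30 CPM in vehicle replicates 1 to 3. The underlying estimated counts were 1226, 43 and 2 with rhCYGB and 1489, 320 and 442 with vehicle, so rhCYGB replicate 3 was below the limit of 3 counts that a count of 0 would allow. The rhCYGB group held both the lowest value and one close to the highest, and the log2 fold change was -0.75 (SE 1.45, edgeR adjusted p = 0.791). Without rhCYGB replicate 1 it was -4.41 (SE 1.12, edgeR adjusted p = 0.0387), and without vehicle replicate 1 it was 0.06 (edgeR adjusted p = 0.995). These are bulk livers, in which fewer cells of a type and less RNA per cell cannot be told apart.

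Other genes of copper handling mostly had higher values with rhCYGB, 9 of 11 (all but Slc31a1 and Atp7a) with a median log2 fold change of 0.94. Over all genes tested, 6744 of 14415 were higher and the median was -0.06. On log2(TPM + 1) 6 of 11 were higher with a median of 0.13, where 87.2% of all genes were negative with a median of -0.51. The number past the threshold was 0 of 11. Ceruloplasmin (Cp), the copper protein that ATP7B loads, was at 4498 ± 1866 CPM with rhCYGB and 3106 ± 284 CPM with vehicle (SD, n = 3 each), with the opposite sign on log2(TPM + 1), at -0.30. The copper enzyme gene Sod1 was at 1270.5 ± 622 CPM with rhCYGB and 602 ± 229 CPM with vehicle, a log2 fold change of 1.08 (SE 0.53, edgeR adjusted p = 0.523) that was 0.28 with the length trend removed. Atox1, the chaperone that hands copper to ATP7B and chosen here after its values were seen, measured 104, 433 and 485 CPM in rhCYGB replicates 1 to 3, against 78.0, 161 and 134 CPM in vehicle replicates 1 to 3. Its transcript is 438 bases long, and its log2 fold change of 1.46 (SE 0.59, edgeR adjusted p = 0.523) was 0.38 with the length trend removed. The same removal lowered the median of the list to 0.28. The metal-binding metallothionein genes Mt1 and Mt2, also chosen after their values were seen, had log2 fold changes of 3.05 (SE 0.98) and 3.31 (SE 1.00), both with edgeR adjusted p = 0.523, and of 2.07 and 2.37 with the length trend removed. Mt1 measured 182, 1293 and 2078 CPM in rhCYGB replicates 1 to 3, against 38.2, 177 and 214 CPM in vehicle replicates 1 to 3. In rhCYGB replicates 2 and 3, where Atp7b was lowest, Mt1, Cp, Sod1 and Atox1 each had their highest CPM. Slc31a1 (105 and 80.0 CPM) and Atp7a (2.17 and 2.18 CPM) were instead at their lowest there, as Atp7b was. The transcripts of Mt1, Sod1 and Atox1 are short, at 542, 648 and 438 bases, and long transcripts were low relative to short ones in those libraries. With the length trend removed, Sod1 and Atox1 were at 0.28 and 0.38 while Mt1 was at 2.07. On log2(TPM + 1) Mt1 was at 2.05, Mt2 at 2.44, Sod1 at 0.26 and Atox1 at 0.49. The part of length in these values was not tested. In TPM, Cp was at 1318 and 1465 in those livers, below the vehicle livers at 1545 to 2028. A link between these genes and Atp7b was not tested.

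The log2 fold changes of all genes varied with transcript length. Over all genes tested the median log2 fold change was 0.71 in the shortest and -0.35 in the longest of 10 equal bins of transcript length. Atp8b1, at 6440 bases the longest pump transcript, was in the longest bin. Abcb4, at 4075 bases, lay in a bin with a median of -0.25, so its own 0.65 was on the other side of 0 from the median of transcripts of like length. With each library's length trend removed, Abcb4 had a log2 fold change of 0.93 (SE 0.27, edgeR adjusted p = 0.450), Abcg8 of 0.67, Abcg5 of 0.59, Atp8b1 of -0.45 and Atp7b of -0.69, and 0 pumps passed. Abcg2, with a transcript of 2491 bases, was near Abcg5 in length, at 2411 bases, and had values of the opposite sign.

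**Figure D3:**
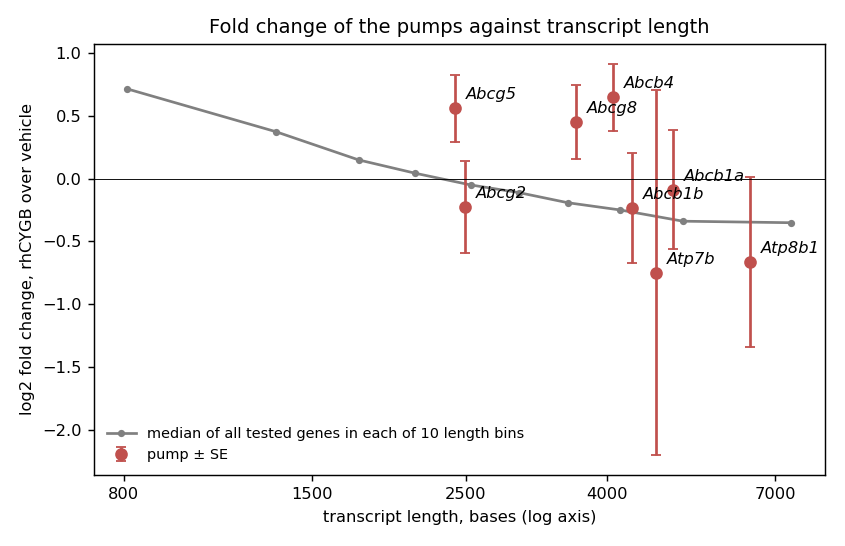
Log2 fold change, rhCYGB over vehicle (vertical axis), of the 8 pumps with their SE against transcript length in bases (log axis), with the median of all tested genes in each of 10 length bins as a grey line. Abcb4, Abcg5 and Abcg8 lie above the grey line at their lengths, Abcb1a lies above it by less than its SE, Abcb1b close to it, and Abcg2, Atp7b and Atp8b1 below it by less than their SE.

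The result depended on the liver and the setting in different ways for each pump. Abcb4 had a positive log2 fold change in 14 of 16 alternatives, from 0.51 to 0.93, and a value of -0.10 in both fits on log2 TPM. With sample quality weights, limma-voom called Abcb4 higher (0.75, adjusted p = 0.0180) and Atp8b1 (-1.23, adjusted p = 0.0251) and Atp7b (-3.04, adjusted p = 0.0307) lower, in a fit that called 30.0% of all genes, 16.1% as higher and 13.9% as lower, and gave rhCYGB replicate 1 a weight of 0.17 against 2.60 for rhCYGB replicate 2. DESeq2 called 3.28% of the 1890 genes its filter left, which included 2 pumps, Abcb4 (adjusted p = 0.0951) and Abcg5 (adjusted p = 0.218). With rhCYGB replicate 1 left out, edgeR called 2 of the 8 pumps, Atp8b1 and Atp7b, beside 23.2% of all genes.

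**Figure D4:**
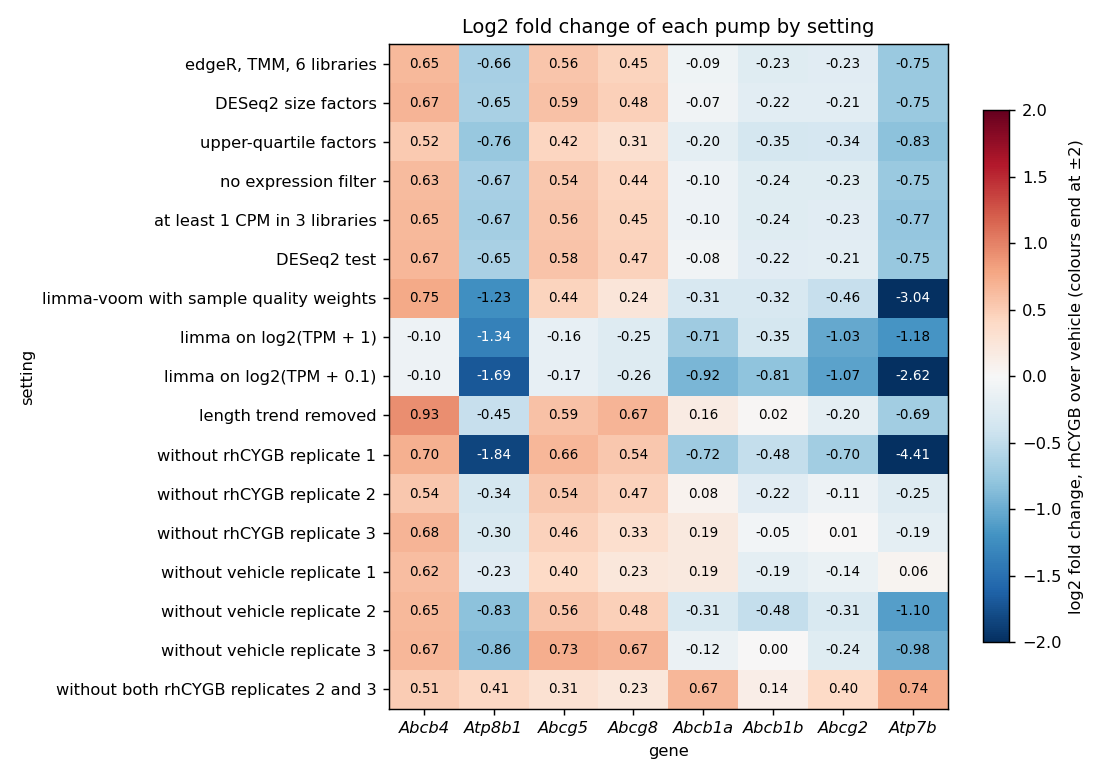
Log2 fold change, rhCYGB over vehicle, of each pump (columns) under each setting (rows), with colours ending at 2 either way. Abcb4, Abcg5 and Abcg8 are positive in all rows except those on log2 TPM, and the remaining pumps change size or sign with the libraries left out.

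Ratios between pumps within a library do not depend on how libraries are scaled. They can still carry each library's length trend where the 2 transcripts differ in length, as for Abcb4 (4075 bases) and Atp8b1 (6440 bases). The ratios were not corrected for that trend. Abcg5 over Abcg8 was 2.17, 2.33 and 2.17 in rhCYGB replicates 1 to 3, against 2.31, 2.00 and 1.96 in vehicle replicates 1 to 3 (FPKM ratio). The log2 difference was 0.09, with an exact two-sided permutation p of 0.3 (adjusted p = 0.4 over 4 ratios), where 0.1 is the smallest p that 3 mice against 3 allow. Abcb4 over Atp8b1, the outward against the inward phospholipid pump, was 11.7, 63.6 and 64.7 in rhCYGB replicates 1 to 3, against 6.97, 14.2 and 15.8 in vehicle replicates 1 to 3. Replicates 2 and 3 of rhCYGB stood above the other 4 livers and replicate 1 lay between vehicle livers, with a log2 difference of 1.65 (exact permutation p = 0.3, adjusted p = 0.4). Abcg2 over Abcb4 was 0.369, 0.156 and 0.142 in rhCYGB replicates 1 to 3, against 0.461, 0.351 and 0.379 in vehicle replicates 1 to 3 (log2 difference -0.97, exact permutation p = 0.2, adjusted p = 0.4). Abcb1b over Abcb1a was 0.0951, 0.163 and 0.155 in rhCYGB replicates 1 to 3, against 0.107, 0.127 and 0.186 in vehicle replicates 1 to 3 (log2 difference -0.03, exact permutation p = 1).

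**Figure D5:**
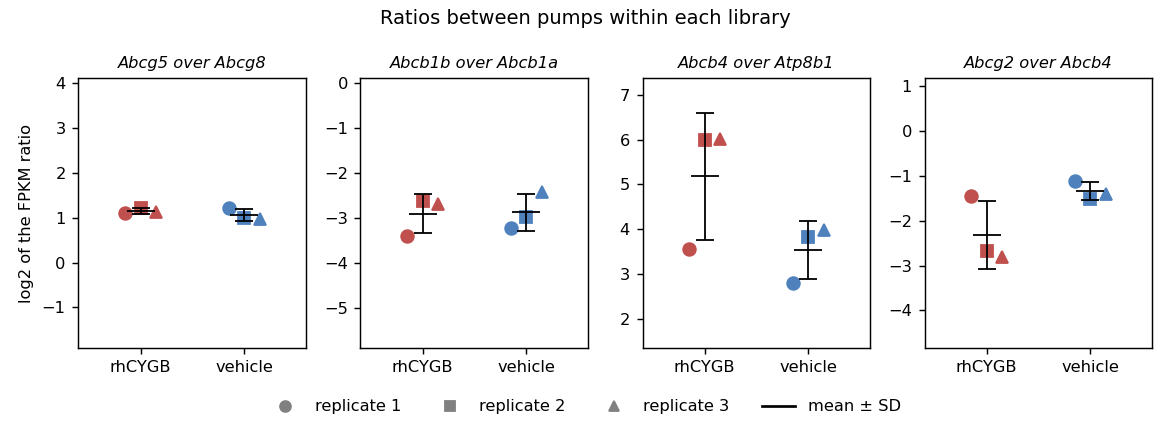
Log2 of 4 FPKM ratios between pumps (vertical axes, each spanning 6 units) in each library, with mean ± SD. Abcg5 over Abcg8 stays within a narrow band in all 6 livers, and Abcb4 over Atp8b1 is highest in rhCYGB replicates 2 and 3.

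Per length, Abcb4 was the most abundant pump in every liver, with 47.2%, 58.0% and 52.8% of the summed TPM of the 8 in rhCYGB replicates 1 to 3 and 43.2% to 46.9% in vehicle livers. Abcg5, Abcg2 and Abcg8 followed, with Abcg2 ranked above Abcg8 in rhCYGB replicate 1 and all vehicle livers, below it in rhCYGB replicates 2 and 3, and above Abcg5 in vehicle replicate 1. Atp8b1 and Abcb1a came next at 1.18 to 21.8 TPM and exchanged places in rhCYGB replicates 2 and 3, so their order did not hold beyond the spread. Atp7b and Abcb1b were last, and they exchanged places in rhCYGB replicates 2 and 3 as well. The summed TPM of the 8 pumps was 366, 184 and 145 in rhCYGB replicates 1 to 3, against 343, 212 and 267 in vehicle replicates 1 to 3.

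Likeness of profiles was measured as the root mean square difference of centred log2 CPM over the 6 livers. A small value means that 2 genes depart from their own means by like amounts in each liver. The measure depends on the size of the changes as well as their direction. Among the pumps, Abcg5 and Abcg8 were closest at 0.09, followed by Abcb4 with Abcg5 at 0.21 and Abcb1a with Abcg2 at 0.22. Of 7556 other genes with a mean of at least 10 CPM, the nearest to Abcb4 were Slc22a5 (0.10), the carnitine transporter, and Osgepl1 (0.11). Nearest to Abcg5 were Ypel5 (0.07) and Asrgl1 (0.09), and nearest to Abcg8 were Fbxo21 (0.09) and Cyp2j6 (0.10). Atp8b1 was nearest to Sec24d (0.06), a coat protein of vesicles that leave the endoplasmic reticulum, and Gapvd1 (0.09). Abcg2 was nearest to Bcl2l2 (0.04) and Mgam (0.06), Abcb1a to Gfm1 (0.11) and Map3k5 (0.13), and Abcb1b to Mertk (0.14) and Bclaf1 (0.17). Atp7b, which had the widest range of the pumps, had no close match by this measure, with Cyp3a44 (0.79) and Cnot6 (0.87) the nearest. All these profiles share the library differences given above.

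The lists of related genes gave 0 members past the threshold in either direction by edgeR. In that fit 53.2% of all genes tested were negative, with a median of -0.06. On log2(TPM + 1) 87.2% were negative, with a median of -0.51. Of the other export pumps 9 of 10 were tested, with Slc51a at 0 in every liver, and the median log2 fold change was 0.09, or -0.46 on log2(TPM + 1). The bile salt export pump Abcb11 measured 677, 362 and 184 CPM in rhCYGB replicates 1 to 3, against 515, 508 and 432 CPM in vehicle replicates 1 to 3, with rhCYGB replicate 1 above and replicates 2 and 3 below all vehicle livers, as for Abcg2. The basolateral pump Abcc3 was at 357 ± 110 CPM with rhCYGB and 192 ± 19.0 CPM with vehicle (log2 fold change 0.89, edgeR adjusted p = 0.523). Genes that supply bile with lipid had a median of 0.23 over 13 genes, 10 of them higher, and -0.50 with 3 higher on log2(TPM + 1), where Scp2 had the opposite sign at -0.60. Examples were the lipid carriers Stard10, at 2710.1 ± 1839 CPM with rhCYGB and 841 ± 283 CPM with vehicle, and Scp2, at 1845 ± 146 CPM with rhCYGB and 1722 ± 514 CPM with vehicle.

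Of the relatives and partners of ATP8B1, the flippase family, 12 of 14 tested genes had negative log2 fold changes, all but Atp9a and Atp10d, beside 53.2% of all genes tested. Their median was -0.31, beside -0.06 over all genes, or -0.11 with the length trend removed. On log2(TPM + 1) all 14 were negative with a median of -0.87, where 87.2% of all genes were negative and the median of all genes was -0.51. Tmem30a, the subunit that ATP8B1 needs to leave the endoplasmic reticulum, measured 147, 67.3 and 59.8 CPM in rhCYGB replicates 1 to 3, against 115, 104 and 105 CPM in vehicle replicates 1 to 3. As with Atp8b1, rhCYGB replicate 1 was high and replicates 2 and 3 were the lowest. Atp9a was at 91.0 ± 4.19 CPM with rhCYGB and 77.1 ± 10.5 CPM with vehicle. Nuclear receptors and factors that act on pump genes had a median of 0.36 over 14 genes, 9 of them higher, and of -0.37 with 2 higher on log2(TPM + 1). Among them Hnf4a, a master regulator of hepatocyte genes, was at 663 ± 290 CPM with rhCYGB and 379 ± 39.3 CPM with vehicle, with rhCYGB replicate 3 highest at 996 CPM. Rxra, the partner of many nuclear receptors, was at 367 ± 117 CPM with rhCYGB and 224 ± 36.6 CPM with vehicle, and on log2(TPM + 1) Hnf4a was at -0.015 and Rxra at -0.064.

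Markers of other cell types varied with these libraries, and their part in the results was not tested. The sums below are in TPM. On log2(TPM + 1) 87.2% of all genes tested were negative, with a median of -0.51, against 53.2% and -0.06 by edgeR. The 10 bile duct markers summed to 899.5, 289.6 and 135 TPM in rhCYGB replicates 1 to 3, against 2092, 1189.9 and 1349 TPM in vehicle replicates 1 to 3, with 7 of 10 genes lower by edgeR and none at 0. Spp1 made up most of that sum, at 542, 299 and 113 CPM with rhCYGB and 975, 892 and 897 CPM with vehicle, while Krt19, the other abundant one, was at 31.7 ± 15.9 CPM with rhCYGB and 20.7 ± 1.65 CPM with vehicle, with the opposite sign on log2(TPM + 1), at -0.29. The 10 stellate cell markers summed to 64.9 to 387 TPM with rhCYGB and 377 to 743 TPM with vehicle, led by Dcn and Col1a2, with 8 of 10 lower. The 10 endothelial markers summed to 49.9 to 182 TPM with rhCYGB and 141 to 218 TPM with vehicle, led by Plvap and Clec4g, with 7 of 10 lower by edgeR. Plvap and Clec4g were not among those 7, at log2 fold changes of 0.27 and 0.24. On log2(TPM + 1) they were at -0.51 and -0.55. The 10 macrophage markers summed to 1209 to 2401 TPM with rhCYGB and 2833 to 4154 TPM with vehicle, led by Lyz2 and C1qa. By edgeR 5 of 10 were lower, with a median log2 fold change of -0.05. In CPM the groups overlapped for both leading genes. Lyz2 was at 772 ± 315 CPM with rhCYGB and 985 ± 352 CPM with vehicle, and C1qa at 316 ± 146.5 and 240 ± 76.8 CPM. Lymphocyte markers summed to 2.29 to 8.81 TPM with rhCYGB and 5.74 to 18.8 TPM with vehicle, led by Ptprc and Nkg7, with 3 of 7 tested lower. The 10 hepatocyte markers summed to 114697 to 136041 TPM with rhCYGB and 113974 to 128273 TPM with vehicle, led by Alb and Trf, and were abundant in every liver. Of these 10, 9 (all but Slco1b2) were higher in the edgeR fit, with a median log2 fold change of 0.76, or 0.92 with the length trend removed, and 5 were higher on log2(TPM + 1), with a median of -0.06. Intestinal markers summed to 454 to 735 TPM with rhCYGB and 456 to 776 TPM with vehicle, led by Apoa4 and Fabp2, and their defining factors Cdx1 and Cdx2 and the enzyme gene Alpi were at 0 in all 6 livers.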

How the data were processed

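StringTie 1.3.4d, HISAT2 2.1.0, FastQC 0.11.7 and the build mm10 are named in the submitters' processing notes. The authors deposited an estimated count, written as a whole number, and an FPKM value per gene and per transcript for each mouse. In each library, over transcripts with at least 500 counts, the deposited counts equalled FPKM times transcript length times 1 constant within 0.198%, so they follow the assembler's division of reads. FPKM was rescaled here to TPM. The labels state neither the annotation release nor the strand setting of the counting.

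Groups came from the treatment label. Replicate numbers follow the order of deposition and pair no animals. Genes were tested on the whole table with edgeR 4.0.16 in R 4.3.3 (filterByExpr, TMM, robust quasi-likelihood F test, Benjamini-Hochberg over 14415 genes). Each SE was the size of the fold change (log2) divided by the root of F. The test was also run on simulated counts. Those were drawn for each gene independently and without the length trend of these libraries, so they cannot show how the test behaves under it. Alternatives used DESeq2 1.42.0 and limma 3.58.1, other filters (none, or 1 CPM in 3 libraries) and factors, pseudocounts of 1 and 0.1, a loess correction for length and each library left out. Ratios were tested by exact permutation in SciPy 1.17.1.

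The pumps, gene lists and tests were chosen with earlier results of these data known. Named genes are all 8 pumps, from each related list and marker list the 2 most abundant, and for each pump the 2 nearest profiles. Atox1, Mt1, Mt2, Slc31a1 and Atp7a were added after their values were seen. Floors cover counting error only.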

Additional observations from a re-analysis of the deposited data

How the results depend on the processing

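Counts were lowest, and counting error therefore largest, for Abcb1b and, in rhCYGB replicates 2 and 3, Atp7b. The effect of depth on the tests was not tested. The count of pumps past the threshold was 0 in all alternatives but 2, where the 0 of DESeq2 covers only the 2 pumps that its filter left. It was 3 with limma-voom and sample quality weights, and with 1 library left out it ran from 0 to 2, the 2 being without rhCYGB replicate 1. No pump transcript passed in any of its alternatives. The median log2 fold change of the 8 pumps was -0.86 on log2(TPM + 0.1), beside -0.75 over all genes tested. The pump median was 0.41 without both rhCYGB replicates 2 and 3, a setting chosen after seeing the data. That setting leaves 1 rhCYGB liver, assumed to vary like the vehicle livers. With 1 library left out the pump median was between -0.59 and 0.13. With log2(TPM + 1) and log2(TPM + 0.1), Abcb4 was -0.10 and -0.10, Abcg5 -0.16 and -0.17, and Abcg8 -0.25 and -0.26. The medians of all genes on these scales were -0.51 and -0.75. With the length trend removed Abcb1a was 0.16 and Abcb1b 0.020. Without both rhCYGB replicates 2 and 3, Atp8b1 was 0.41, Abcb1a 0.67, Abcb1b 0.14, Abcg2 0.40 and Atp7b 0.74. With 1 library left out the lowest and highest values were -0.72 and 0.19 for Abcb1a, -0.48 and 0.0010 for Abcb1b, -0.70 and 0.015 for Abcg2, -4.41 and 0.057 for Atp7b, -1.84 and -0.23 for Atp8b1, 0.54 and 0.70 for Abcb4, 0.40 and 0.73 for Abcg5, and 0.23 and 0.67 for Abcg8. The log2 difference of Abcb1b over Abcb1a then ran from -0.20 to 0.22, that of Abcb4 over Atp8b1 from 1.23 to 2.46, that of Abcg2 over Abcb4 from -1.41 to -0.72 and that of Abcg5 over Abcg8 from 0.05 to 0.17. The cause of these shifts was not tested. No paired analysis was possible because the labels give each mouse its own number and no number is shared between the groups.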
